A study of Mus musculus with 9 samples.

Results

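The transcriptomes of arterial endothelial cells (AECs) with bright *Nestin*-GFP and of sinusoidal endothelial cells (SECs) of mouse bone marrow were compared across all genes, to find which transcripts set the 2 vessel types apart. The comparison took all libraries that the labels assign to these cells, 3 of *Nestin*-GFPbright AECs and 3 of SECs, which is 6 of the 9 libraries of the series. Of 17232 listed genes, 15706 passed the filter on low values (at least 0.1 RPKM in at least 3 of the 6 libraries) and were tested. RPKM is the number of reads scaled to the length of the transcript and the depth of the library. The deposited values carry a small added count, so that a gene without a read is listed just above 0. The other 3 libraries, of AECs with dim *Nestin*-GFP, stayed out of the fit and are given as values beside some results, since they would be set against the same SEC libraries. Where AECs are named without brightness, the *Nestin*-GFPbright libraries are meant.

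All cells came from adult *Nestin*-GFP mice, which carry green fluorescent protein under regulatory elements of *Nestin*, and no treatment is named. The study states for its experiments in general that mice of both sexes were used. AECs were sorted as CD45-CD31+PDPN-Sca-1high cells with high *Nestin*-GFP, and SECs as CD45-CD31+PDPN+Sca-1low cells. Brightness of the transgene thus defined the AEC group and says little about the level of endogenous *Nes*. The labels do not say whether libraries of 1 group came from separate mice, so the p values measure the spread between these libraries, which may be technical in part.

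Arterioles bring blood into the marrow under pressure. Their endothelium is a tight, continuous layer on elastic matrix, surrounded by smooth muscle, and arterial identity is set up by VEGF and Notch signals. Sinusoids are wide, thin-walled venous vessels with a discontinuous basement membrane, whose endothelium clears macromolecules from blood by endocytosis and is the wall through which blood cells enter and leave the marrow. Both vessel types are regarded as parts of the niche of haematopoietic stem cells (HSCs), which need the ligand of the receptor Kit and the chemokine CXCL12.

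The libraries were deep but uneven in content. Reads in listed genes numbered 21446498 to 54389294 in *Nestin*-GFPbright AECs and 36720449 to 73475550 in SECs. Genes of a neutrophil list took 18.6%, 2.76% and 4.54% of the reads of *Nestin*-GFPbright AEC replicates 1, 3 and 4 and 9.42%, 0.00719% and 4.45% of those of SEC replicates 1, 3 and 4. In replicate 1 of each group, 24 of 25 genes of a pan-endothelial list lay below the mean of the other libraries of that group, with a median ratio of 0.29 in AECs and 0.645 in SECs. Over the 298 genes called higher in *Nestin*-GFPbright AECs, AEC replicate 1 was at a median of 0.483 times the mean of the other AEC libraries. Over the 438 called higher in SECs, SEC replicate 1 was at 0.731 times that of the other SEC libraries. These ratios were taken after 1 RPKM was added to each level, which pulls those of low genes towards 1. The part of these library differences in the results was not tested other than by leaving libraries out. In a bulk sample, fewer cells of a type and less RNA per cell cannot be told apart.

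**Figure D1:**
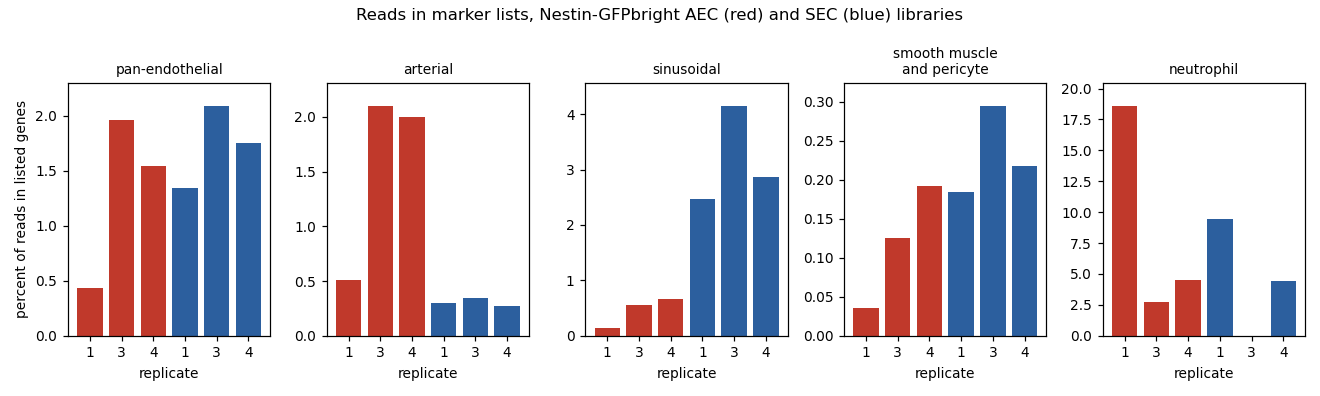
Percent of the reads in listed genes (vertical axes, one scale per panel) that fell in 5 marker lists, for *Nestin*-GFPbright AEC replicates 1, 3 and 4 (red bars) and SEC replicates 1, 3 and 4 (blue bars). The neutrophil list reaches 18.6% in *Nestin*-GFPbright AEC replicate 1 and is at 0.00719%, too small to be drawn, in SEC replicate 3. The arterial and the sinusoidal lists, which hold genes known from these libraries, separate the groups. The smooth muscle and pericyte list includes *Kcnj8* and *Abcc9*, which were abundant in SECs, so its bars do not measure mural cells.

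With limma, 298 genes passed an adjusted p of 0.05 on the *Nestin*-GFPbright AEC side (1.9% of those tested) and 438 on the SEC side (2.79%). Counts of called members of the gene lists below stand beside these shares. A list with only 1 or 2 calls on a side is no result about the list. At an unadjusted p under 0.05 there were 2571. All 3 AEC libraries lay above all 3 SEC libraries in 1611 genes (10.3%), and all 3 SEC libraries lay above all 3 AEC libraries in 1957 (12.5%). The median log2 fold change of all genes tested was 0.027. Without *Nestin*-GFPbright AEC replicate 1, 681 genes were higher and 495 lower, and 667 of the 736 calls remained. Without any 1 of the other 5 libraries the calls numbered 51 to 121 higher and 109 to 296 lower, the fewest without SEC replicate 4 (51 higher, 127 lower) and *Nestin*-GFPbright AEC replicate 4 (63 and 109).

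**Figure D2:**
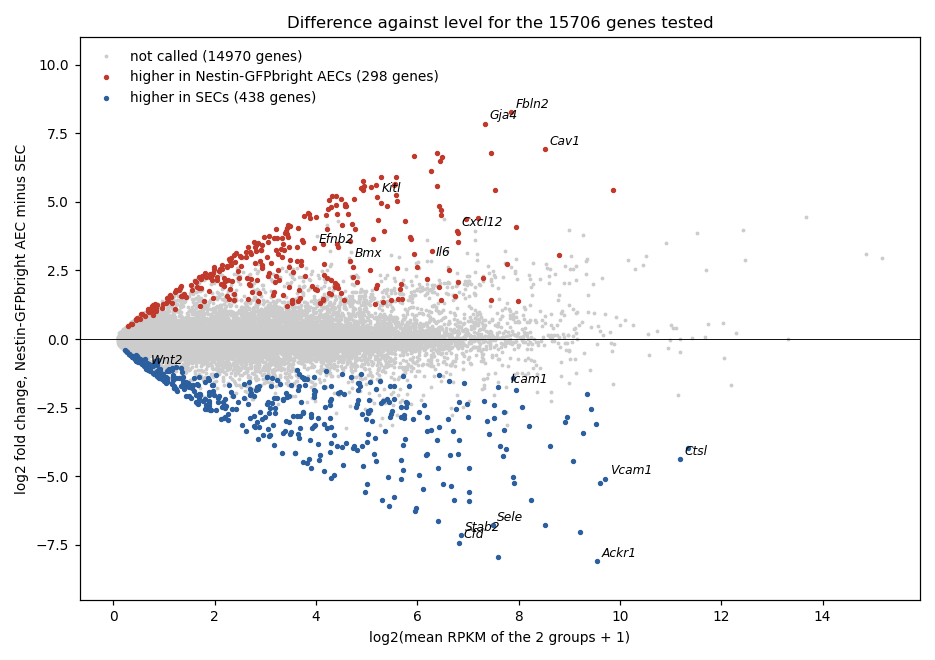
Log2 fold change of *Nestin*-GFPbright AECs over SECs (vertical axis, values of log2(RPKM + 1)) against the mean level of both groups (horizontal axis) for the 15706 genes tested. Each point is 1 gene; the 298 genes called higher in AECs are red and the 438 called higher in SECs are blue, and the widest gaps named in the text include those of *Fbln2*, *Gja4* and *Cav1* above and *Ackr1* and *Cfd* below.

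The 3 marker genes differed in the direction of the labels. The study had named all 3 from these same libraries, so this is no check of the labels. *Gja4* and *Gja5* encode connexins, the gap junction proteins of arterial endothelium, and *Stab2* encodes a scavenger receptor of sinusoids that takes up hyaluronan. *Gja4*, on chromosome 4 from 127311421 to 127314039 of GRCm38, stood at 134, 418 and 412 RPKM in *Nestin*-GFPbright AEC replicates 1, 3 and 4 and at 0.624, 0.165 and 0.016 RPKM in SEC replicates 1, 3 and 4. The SEC values rest on 41, 19 and 1 reads, and even the lowest AEC library lay far above the highest SEC library (log2 fold change 7.84, standard error 0.49, adjusted p = 0.0021). *Gja5*, on chromosome 3 from 97032416 to 97053634, had 48.6, 194 and 254 RPKM in AECs and 0.807, 0.00214 and 0.00214 in SECs, in the same order of replicates, which is used throughout. SEC replicate 1 held the only SEC reads of *Gja5* (log2 fold change 6.79, standard error 0.64, adjusted p = 0.00489). *Stab2*, on chromosome 10 from 86841198 to 87008025, gave the opposite picture, with 1.37, 0.289 and 0.365 RPKM in AECs and 202, 277 and 208 in SECs. The SEC libraries were close to each other and the groups were far apart (log2 fold change -7.14, standard error 0.30, adjusted p = 0.001). *Nestin*-GFPdim AECs had 3.38, 36 and 9.74 RPKM of *Stab2* and 132, 134 and 366 RPKM of *Gja4*. Calls of these 3 markers held in all 18 other settings.

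The genes behind the sort, which defined the groups and are no finding, were not called. *Ly6a*, which encodes Sca-1, had 993, 3492 and 2883 RPKM in AECs and 264, 589.7 and 235 in SECs, without overlap (log2 fold change 2.69, standard error 0.63, adjusted p = 0.0735). It passed in 5 of 18 settings, among them the leaving out of *Nestin*-GFPbright AEC replicate 1. *Ly6e*, of the same gene family, overlapped at 574 to 1189 RPKM in AECs and 601 to 1224 in SECs. *Nes* itself had 3.03, 21.5 and 13.7 RPKM in AECs and 0.76, 0.894 and 0.735 in SECs (log2 fold change 2.62, adjusted p = 0.0794) and *Pecam1*, which encodes CD31, 97.7, 379 and 300.2 RPKM in AECs and 87.6, 158 and 107 in SECs (log2 fold change 0.96, adjusted p = 0.498). *Ptprc*, which encodes the pan-haematopoietic protein CD45, was at 5.23 to 44.5 RPKM in AECs and 0.0752 to 18.6 in SECs, highest in replicate 1 of both groups. *Pdpn*, the gene of podoplanin, did not pass the filter, with at most 0.866 RPKM in any of the 6 libraries, although its protein was part of the gate.

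Of the 15706 tested genes, 10522 have a promoter window in RefSeq (GRCm38.p6, 250 bases before to 50 after the start). Stretches upstream of the start of a strongly SEC-sided gene, *Sele*, and of both connexin genes are shown so that the markers can be read against the motif counts. Capitals mark matches on either strand to any of 6 short motifs, none of which overlap in the stretches shown. NF-kappaB was searched as GGGNNTTCC and ETS factors as CCGGAAGT. The letters searched for RBPJ, which carries Notch signals, were TGGGAA. For SOX factors the letters were AACAAT. The AP-1 motif was read as TGANTCA. Last, TATAAA stood for the TATA box, a motif added after the windows had been seen.
Sele (chr1:164047984-164048233, plus strand): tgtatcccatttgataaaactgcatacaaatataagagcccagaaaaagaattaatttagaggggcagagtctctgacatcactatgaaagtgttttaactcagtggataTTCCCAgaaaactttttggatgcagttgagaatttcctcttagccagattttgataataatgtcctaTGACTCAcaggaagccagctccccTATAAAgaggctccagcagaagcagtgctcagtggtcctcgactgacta
Gja4 (chr4:127314040-127314289, minus strand): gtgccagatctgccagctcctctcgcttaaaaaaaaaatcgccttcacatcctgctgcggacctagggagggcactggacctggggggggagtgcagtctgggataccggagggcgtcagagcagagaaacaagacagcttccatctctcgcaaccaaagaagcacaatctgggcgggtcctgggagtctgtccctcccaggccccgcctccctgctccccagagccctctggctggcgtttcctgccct
Gja5 (chr3:97032152-97032401, plus strand): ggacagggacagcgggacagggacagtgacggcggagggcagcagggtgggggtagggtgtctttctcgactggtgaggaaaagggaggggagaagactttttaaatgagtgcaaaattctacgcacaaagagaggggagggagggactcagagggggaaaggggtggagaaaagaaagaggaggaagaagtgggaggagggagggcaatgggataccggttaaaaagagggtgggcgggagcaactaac
The window of *Sele* held 1 match each to RBPJ, AP-1 and TATA, and those of *Gja4* and *Gja5* held none to any of the 6. Among windows of genes higher in AECs, ETS letters were in 0.9% (2 of 213), and among those of genes lower in AECs in 3.2% (10 of 312), beside 7.9% of all windows. TATAAA was in 11.7%, 10.6% and 7.3%, respectively. For RBPJ the shares were 26.8%, 25.6% and 23.4%, for AP-1 6.1%, 8.0% and 5.3%, for NF-kappaB 6.6%, 7.4% and 7.4%, and for SOX 6.1%, 7.7% and 5.8%. These counts are descriptions and carry no test, and a match is not a binding site.

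The widest gaps in favour of *Nestin*-GFPbright AECs were led by *Fbln2*, *Gja4* and *Cav1*. The 12 genes named here had the largest fold changes among 185 called genes with at least 10 RPKM in AECs and no overlap. *Fbln2*, which encodes fibulin 2 of elastic and basement membrane matrix, had 149.7, 578 and 645 RPKM in AECs and 0.457, 0.317 and 0.00458 in SECs (log2 fold change 8.27, standard error 0.57, adjusted p = 0.00256). *Cav1*, which encodes the coat protein of caveolae, had 218, 846 and 1119 RPKM in AECs against 4.66, 5.79 and 2.07 in SECs (log2 fold change 6.92, standard error 0.66, adjusted p = 0.00489). Replicate 1 was the lowest AEC library in both genes, and even there the level was over that of every SEC library. *Sparcl1*, a matricellular protein, had 102, 368 and 569 RPKM in AECs and 4.58, 1.88 and 0.0151 in SECs (log2 fold change 6.78, adjusted p = 0.00951). Its SEC libraries ranged widely, and the call was lost without *Nestin*-GFPbright AEC replicate 4 (adjusted p = 0.0557), with 0.01 RPKM added and with voom (adjusted p up to 0.066). *Stmn2*, a regulator of microtubules best known from neurons, reached 43.7, 158 and 160.1 RPKM in AECs and at most 0.0973 in SECs (log2 fold change 6.66, adjusted p = 0.00315).

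*Car7*, a carbonic anhydrase, had 59.4, 242 and 227 RPKM in AECs against 0.511, 0.682 and 0.322 in SECs (log2 fold change 6.64, adjusted p = 0.00356). *Rbp7*, which encodes a retinol-binding protein, had 46, 242 and 229 RPKM in AECs against 0.542, 1.02 and 0.15 in SECs (log2 fold change 6.50, adjusted p = 0.00583). *Alpl*, which encodes tissue-nonspecific alkaline phosphatase, had 32, 93.1 and 154 RPKM in AECs against 0.748, 0.030 and 0.251 in SECs (log2 fold change 5.90, adjusted p = 0.00514). *Lims2*, an adaptor of integrin adhesions also called PINCH2, and *Tmem255b*, a membrane protein, had log2 fold changes of 6.14 and 5.91. *Gkn3*, a gastrokine, had 27.4, 86.2 and 63.6 RPKM in AECs and no read in any SEC library. Against the level that 3 reads in each SEC library would give, 0.0710 RPKM, its AEC mean was at least 833-fold higher. Apart from *Sparcl1*, every call named among these 12 held in all 18 settings.

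**Figure D3:**
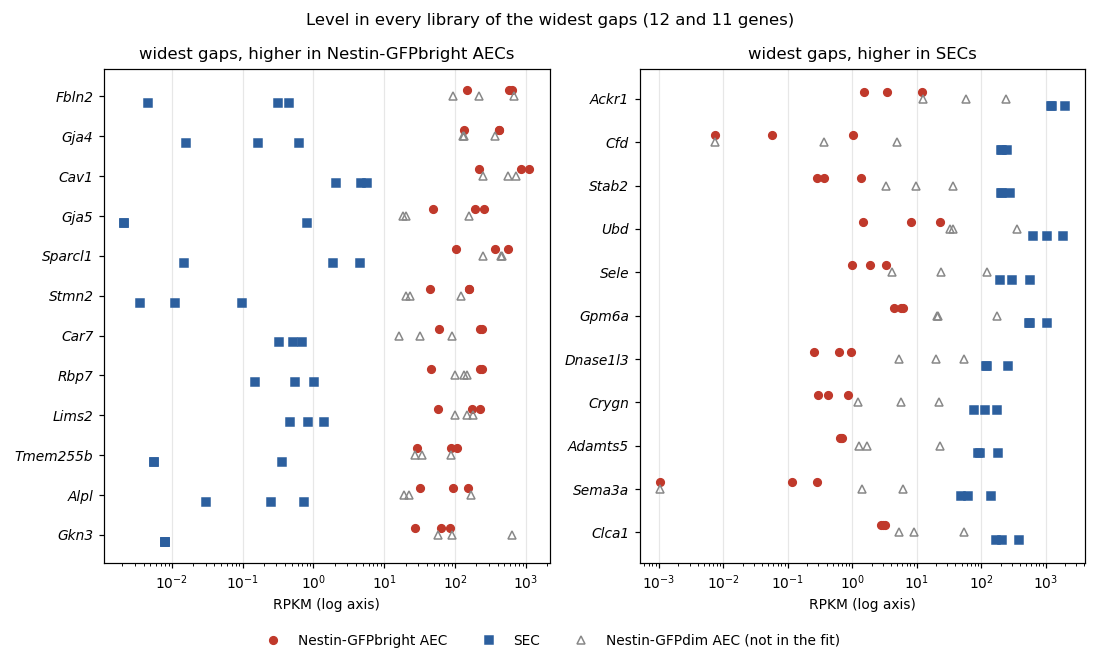
RPKM (horizontal log axes) in every library of genes with the widest gaps, 12 higher in AECs (left) and 11 higher in SECs (right); red circles are *Nestin*-GFPbright AECs, blue squares SECs and open grey triangles *Nestin*-GFPdim AECs, which were not in the fit. Genes on the left lie to the right in AECs, as *Gja4* with 134 RPKM or more, and those on the right lie to the right in SECs, as *Stab2* with 202 RPKM or more.

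On the SEC side *Ackr1*, *Cfd* and *Stab2* were among the widest gaps, taken by the same rule from 244 genes. *Ackr1*, the atypical chemokine receptor of venous vessels also known as Duffy antigen, had 1192, 1989.7 and 1269 RPKM in SECs and 11.9, 1.54 and 3.48 in AECs (log2 fold change -8.10, standard error 0.60, adjusted p = 0.00287). *Cfd*, which encodes complement factor D, had 213, 203 and 252 RPKM in SECs and 1.02, 0.00735 and 0.0575 in AECs (log2 fold change -7.43, standard error 0.32, adjusted p = 0.001). Both genes were lowest in *Nestin*-GFPbright AEC replicate 3, and *Nestin*-GFPdim AECs had 12.4, 244 and 59.1 RPKM of *Ackr1*. *Ubd*, a ubiquitin-like modifier induced by cytokines, had 637, 1848 and 1033 RPKM in SECs and 23.1, 1.47 and 8.06 in AECs (log2 fold change -7.04, adjusted p = 0.00905), a call lost without AEC replicate 4 or SEC replicate 4 (adjusted p 0.0567 to 0.0595). *Gpm6a*, a membrane glycoprotein known from neurons, had 566, 1064 and 556 RPKM in SECs against 4.37, 5.72 and 6.09 in AECs (log2 fold change -6.78, adjusted p = 0.00114).

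*Dnase1l3*, a nuclease that degrades DNA in blood, had 121, 258 and 119 RPKM in SECs and 0.635, 0.255 and 0.953 in AECs (log2 fold change -6.62, adjusted p = 0.00161). *Adamts5*, a protease of proteoglycans, had 90.2, 180.4 and 96.3 RPKM in SECs and 0.66, 0.643 and 0.687 in AECs (log2 fold change -6.14, adjusted p = 0.00149). *Sema3a*, a repulsive guidance cue that binds neuropilin, had 48.6, 142 and 63.4 RPKM in SECs and 0.284, 0.00105 and 0.115 in AECs (log2 fold change -6.09, adjusted p = 0.00256). The AEC libraries hardly differed in *Adamts5*. *Crygn*, a lens crystallin, and *Clca1*, a member of a family of similar genes whose reads may be shared, had log2 fold changes of -6.27 and -5.90. All of these calls but that of *Ubd* held in all 18 settings.

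Arterial genes were higher in AECs as a list. Of 29 tested members of the arterial list 18 were higher, 0 lower and 11 did not pass, with a median log2 fold change of 3.32 beside 0.027 over all genes. The list holds genes that are known from these libraries, so its count is a description. *Bmx*, a kinase of the Tec family, had 42.1, 31.3 and 58.6 RPKM in AECs and 5.04, 4.7 and 5.67 in SECs (log2 fold change 2.83, standard error 0.27, adjusted p = 0.00509). Replicate 3 rather than replicate 1 was its lowest AEC library. *Sema3g*, a secreted semaphorin of arterial endothelium, had 38, 136 and 96.3 RPKM in AECs and 0.771, 0.606 and 0.556 in SECs (log2 fold change 5.61, adjusted p = 0.00356). *Hey1*, a repressor induced by Notch, had 21.7, 91 and 64.2 RPKM in AECs and 0.0725, 0.58 and 0.0305 in SECs (log2 fold change 5.42, adjusted p = 0.00549). *Cdh13*, a cadherin anchored by lipid that binds adiponectin, had 14.6 to 58.9 RPKM in AECs and at most 0.162 in SECs (log2 fold change 5.12, adjusted p = 0.00638). *Efnb2*, the ephrin ligand that marks arteries in the embryo, had 9.94, 48.8 and 24.2 RPKM in AECs and 0.733, 1.91 and 1.71 in SECs (log2 fold change 3.32, adjusted p = 0.0269), a call lost without any 1 library other than AEC replicate 1 (adjusted p 0.0627 to 0.12). *Mgp*, an inhibitor of calcification in arteries (log2 fold change 3.52, adjusted p = 0.0367), lost its call without any 1 library other than AEC replicate 1 (adjusted p 0.0692 to 0.154). The call of *Mgp* was also lost with voom.

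The members that did not pass included the best-known arterial regulators. *Dll4*, the arterial ligand of Notch, had 24.4, 165 and 154 RPKM in AECs and 20.4, 55.3 and 44.8 in SECs, which overlap (log2 fold change 1.19, adjusted p = 0.593). It passed in 2 of 18 settings, both without *Nestin*-GFPbright AEC replicate 1. *Sox17*, a transcription factor of arterial fate, had 18.3, 59.3 and 18.1 RPKM in AECs and 1.19, 2.41 and 11 in SECs (log2 fold change 2.65, adjusted p = 0.125) and did not overlap. *Notch4* and *Notch1* encode the Notch receptors of endothelium. *Notch4* had 3.94, 16.9 and 7.55 RPKM in AECs and 1.51, 1.94 and 3.96 in SECs (log2 fold change 1.46, adjusted p = 0.232), and *Notch1* had 7.03, 12.6 and 8.31 RPKM in AECs and 6.27, 6.51 and 7.27 in SECs (log2 fold change 0.39, adjusted p = 0.605). *Unc5b*, a netrin receptor of arteries, came close to the threshold (log2 fold change 2.22, adjusted p = 0.0548) with 3.17, 10.9 and 9.97 RPKM in AECs and 0.415, 1.38 and 0.596 in SECs, and passed in 7 of 18 settings. In the Notch pathway list, 2 of 24 tested genes were higher, *Hey1* and *Jag2*, and 1 lower, *Psen2*, beside 1.9% and 2.79% of all genes tested. *Jag2*, a Notch ligand, had 8.35, 31.9 and 22.3 RPKM in AECs and 1.88, 1.81 and 1.46 in SECs (log2 fold change 2.83, adjusted p = 0.0256), while its relative *Jag1* had 3.73, 10.3 and 9.83 RPKM in AECs and 3.34, 6.04 and 4.76 in SECs (log2 fold change 0.57, adjusted p = 0.631). *Psen2*, a catalytic subunit of gamma-secretase, had 13.9, 10.3 and 14.7 RPKM in AECs and 33.2, 58.6 and 34.4 in SECs (log2 fold change -1.59, adjusted p = 0.0332). The call of *Jag2* was lost without any 1 library other than AEC replicate 1 (adjusted p 0.0704 to 0.122). That of *Psen2* was lost in 7 of 18 settings, among them without any 1 library other than AEC replicate 1 (adjusted p 0.0721 to 0.114).

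Sinusoidal genes were lower in AECs, again as a list that is known from these libraries. Of 29 tested members 22 were lower, 0 higher and 7 did not pass, with a median log2 fold change of -3.68. *Mrc1*, the mannose receptor CD206, had 148, 289.97 and 180.2 RPKM in SECs and 1.48, 4.91 and 1.77 in AECs (log2 fold change -5.85, standard error 0.42, adjusted p = 0.00279). *Gpr182*, a chemokine-binding receptor of sinusoids and lymphatics, had 209.7, 353 and 191 RPKM in SECs and 2.18, 6.75 and 4.22 in AECs (log2 fold change -5.59, adjusted p = 0.00279). *Nr2f2*, which encodes the venous transcription factor COUP-TFII, had 19, 37.7 and 21.8 RPKM in SECs and 0.279, 1.65 and 1.47 in AECs (log2 fold change -3.68, adjusted p = 0.00703). *Maf*, a factor of sinusoidal identity in liver, had 10.9, 21.1 and 12.7 RPKM in SECs and 0.421, 1.25 and 0.652 in AECs (log2 fold change -3.14, adjusted p = 0.0067). *Oit3*, a secreted protein known from liver sinusoids, was nearly the same in all SEC libraries, at 15.1 to 16.5 RPKM, against 0.338, 0.0131 and 0.135 in AECs (log2 fold change -3.87, adjusted p = 0.00194). *Epor*, the receptor of erythropoietin, had 88.4, 114 and 88.6 RPKM in SECs and 11.4, 5.92 and 2.41 in AECs (log2 fold change -3.87, adjusted p = 0.00909), a call lost without SEC replicate 4 (adjusted p = 0.0567). *C1qtnf1*, which belongs to the adiponectin-like CTRP proteins, had 126, 232 and 145 RPKM in SECs and 7.94, 28.8 and 37.1 in AECs (log2 fold change -2.91, adjusted p = 0.0435). It lost its call in 8 of 18 settings, among them without any 1 library other than AEC replicate 1 (adjusted p 0.0848 to 0.163). *Wnt2*, a ligand secreted by hepatic sinusoids, had no read in any AEC library and 0.749, 1.3 and 1.35 RPKM in SECs, at least 26.2-fold higher than 3 reads per AEC library would give. Its call was lost without AEC replicate 3 or 4 or SEC replicate 3 or 4 (adjusted p 0.0573 to 0.0833) and when all 3 groups were fitted together. Among members that did not pass, *Cd36*, a fatty acid transporter, pointed the other way, with 195, 706 and 1059 RPKM in AECs and 229.5, 352 and 219 in SECs (log2 fold change 1.01, adjusted p = 0.567), and *Ephb4*, the venous receptor of *Efnb2*, had 19.4, 48.8 and 25.9 RPKM in AECs and 41, 45.6 and 54.9 in SECs (log2 fold change -0.67, adjusted p = 0.457).

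A list of 25 pan-endothelial genes had a median log2 fold change of -0.28, with 1 member higher, *Vwf*, and 0 lower. *Vwf*, the von Willebrand factor of Weibel-Palade bodies, was low in both cell types, at 5.69, 4.94 and 5.08 RPKM in AECs and 0.208, 0.389 and 0.038 in SECs (log2 fold change 2.37, adjusted p = 0.00454), and lost its call when all 3 groups were fitted together (adjusted p = 0.0983). *Kdr*, the receptor VEGFR2, had 22, 123 and 105 RPKM in AECs and 229, 349 and 261 in SECs, with no overlap (log2 fold change -2.04, adjusted p = 0.177). It passed in only 1 of 18 other settings, the replicate block, a fit with a term for the replicate number (adjusted p = 0.042). *Robo4*, a receptor that steadies vessels, had 21.8, 112 and 102 RPKM in AECs and 192, 287 and 214 in SECs (log2 fold change -1.83, adjusted p = 0.207). *Tek*, the receptor of angiopoietins, had 34.5, 101 and 164 RPKM in AECs and 123, 224 and 146 in SECs (log2 fold change -0.93, adjusted p = 0.558). A p that misses the threshold does not show that levels were alike.

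**Figure D4:**
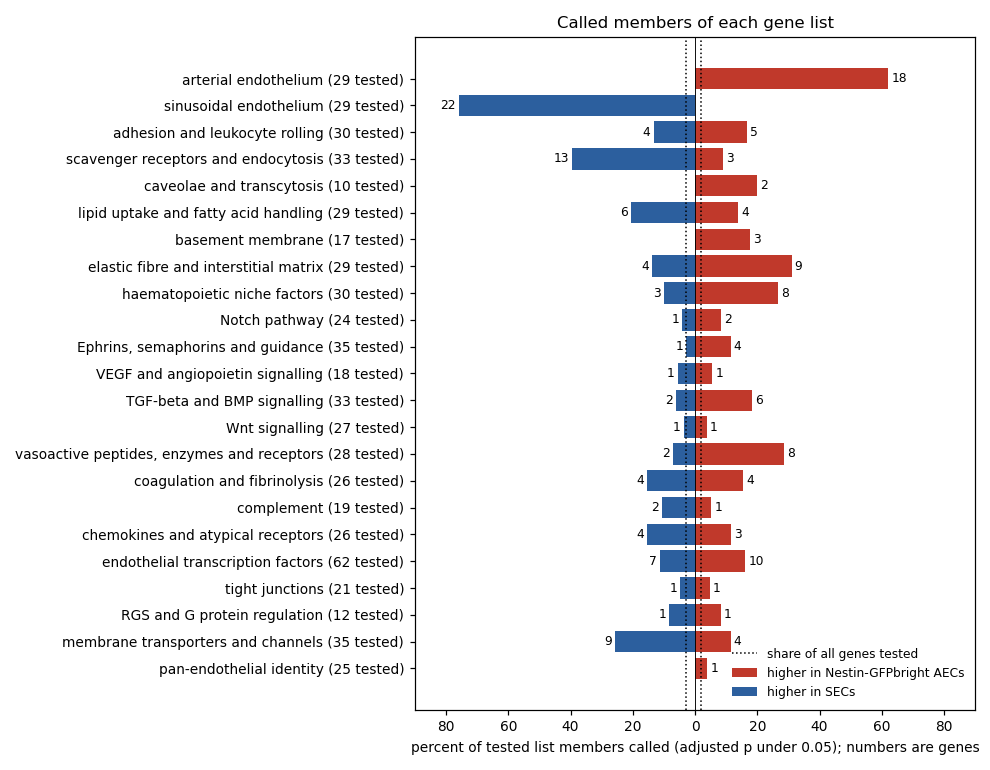
Percent of the tested members of each endothelial list that were called higher in *Nestin*-GFPbright AECs (red, to the right) or higher in SECs (blue, to the left); the numbers on the bars are genes, and the dotted lines give the shares of all genes tested, 1.9% and 2.79%. The arterial list has 18 of 29 called to the right and the sinusoidal list 22 of 29 to the left, and most other lists have calls on both sides.

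Of 30 tested adhesion molecules 5 were higher in AECs, *Cd34*, *Podxl*, *Jam2*, *Itgb4* and *Itgb3*, and 4 lower, *Sele*, *Selp*, *Vcam1* and *Madcam1*. *Sele* and *Selp* encode E- and P-selectin, on which leukocytes and progenitors roll. *Sele*, on chromosome 1 from 164048234 to 164057677, had 193, 568 and 301 RPKM in SECs and 0.989, 3.34 and 1.91 in AECs (log2 fold change -6.78, standard error 0.47, adjusted p = 0.00256). *Selp* had 129, 284 and 177 RPKM in SECs and 11, 0.56 and 4.01 in AECs (log2 fold change -5.37, standard error 0.74, adjusted p = 0.0143), and its call was lost without AEC replicate 4 or SEC replicate 3 or 4 (adjusted p 0.0632 to 0.076). *Vcam1*, the ligand of the integrin VLA-4, was among the most abundant of them, with 1315, 2083 and 1469 RPKM in SECs and 27.3, 62.2 and 55 in AECs (log2 fold change -5.10, standard error 0.39, adjusted p = 0.00299). *Madcam1*, the ligand of a gut-homing integrin, was lower in level but as separate, at 17.2, 24.7 and 12 RPKM in SECs and 0.0201, 0.0257 and 0.00478 in AECs (log2 fold change -4.17, adjusted p = 0.00287). *Icam1*, a ligand of beta-2 integrins, did not pass, with 89.9, 486 and 359.6 RPKM in SECs and 14.2, 191 and 139.6 in AECs (log2 fold change -1.76, adjusted p = 0.551). Replicate 1 was the lowest library of both groups in *Icam1*, and the groups overlapped. At each replicate number the SEC library was above the AEC library, but the labels do not say that equal numbers pair the samples. *Icam1* passed in 1 of 18 other settings, the replicate block (adjusted p = 0.0296).

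On the AEC side, *Cd34*, a sialomucin of progenitors and capillary endothelium, had 133, 468 and 481 RPKM in AECs against 11.2, 6.6 and 3.16 in SECs (log2 fold change 5.42, adjusted p = 0.0079). Its relative *Podxl*, podocalyxin, had 79.6, 277 and 152 RPKM in AECs and 2.58, 6.19 and 6.55 in SECs (log2 fold change 4.70, adjusted p = 0.00707). Both calls were lost without AEC replicate 4 (adjusted p 0.0524 and 0.0515). *Jam2*, a junctional adhesion molecule, had 53.5, 202 and 236 RPKM in AECs and 2.1, 3.26 and 0.844 in SECs (log2 fold change 5.57, adjusted p = 0.0072) and held in every setting. *Itgb4*, an integrin chain of laminin anchorage, and *Itgb3*, the integrin chain of platelets and activated endothelium, were higher too (log2 fold changes 3.17 and 2.89). *Itgb3* is also on the megakaryocyte list, which took 0.176% of the reads of *Nestin*-GFPbright AEC replicate 1 and at most 0.0139% elsewhere, and it had 34.9, 14 and 8.16 RPKM in AECs. Its own reads, 9460, 2789 and 1041 in AEC replicates 1, 3 and 4, are in this share. The share thus does not measure megakaryocyte RNA apart from *Itgb3*, and the part of such RNA in its level was not tested. The call of *Itgb3* was lost without any 1 library other than AEC replicate 1 (adjusted p 0.065 to 0.139), and that of *Itgb4* without AEC replicate 4 or any 1 SEC library (adjusted p 0.0528 to 0.0818). Both calls were also lost when all 3 groups were fitted together. In *Nestin*-GFPdim AECs, *Sele* was at 4.15, 125 and 23.7 RPKM, *Vcam1* at 82.6, 396 and 147 and *Cd34* at 233, 550.3 and 255.

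**Figure D5:**
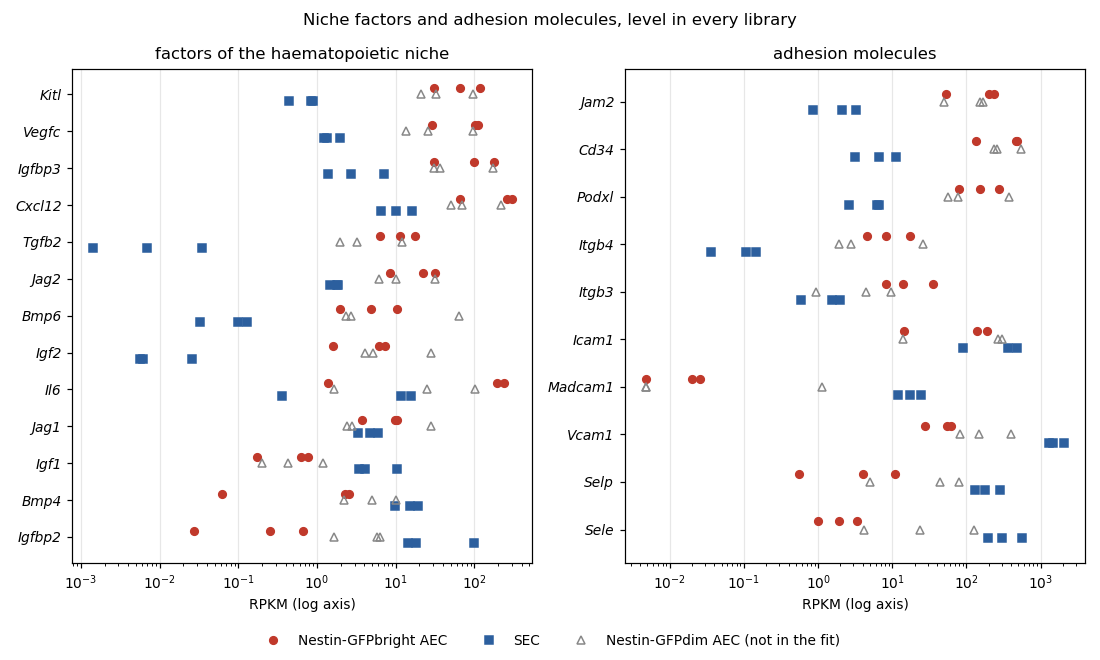
RPKM (horizontal log axes) in every library for 13 niche factors (left) and 10 adhesion molecules (right), with red circles for *Nestin*-GFPbright AECs, blue squares for SECs and open grey triangles for *Nestin*-GFPdim AECs, which were not in the fit. *Kitl* and *Cxcl12* are to the right in every AEC library, *Sele*, *Selp*, *Vcam1* and *Madcam1* are to the right in every SEC library, and *Icam1*, *Il6* and *Jag1* overlap.

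Genes of endocytic clearance were called more often on the SEC side. Of 33 tested members of the scavenger receptor and endocytosis list 13 were lower in AECs and 3 higher, with a median log2 fold change of -1.11. Besides *Stab2* and *Mrc1* they included *Stab1*, the relative of *Stab2*, with 72.5, 136 and 86 RPKM in SECs and 3.2, 12.6 and 6.61 in AECs (log2 fold change -3.66, adjusted p = 0.0117). *Fcgr2b*, the inhibitory Fc receptor that clears immune complexes in sinusoids, had 96.1, 408 and 129 RPKM in SECs and 21.8, 8.76 and 10.1 in AECs (log2 fold change -3.68, adjusted p = 0.0242). *Fcgrt*, the neonatal Fc receptor that recycles IgG and albumin, was abundant in SECs, at 969, 1725 and 1214 RPKM in SECs against 66.8, 214 and 225 in AECs (log2 fold change -3.09, adjusted p = 0.0297). *Ctsl*, which encodes cathepsin L, had 3311, 5921 and 3984 RPKM in SECs and 119, 262 and 276 in AECs (log2 fold change -4.38, standard error 0.48, adjusted p = 0.00685). *Lgmn*, which encodes the asparaginyl protease legumain, had 507, 1047 and 645 RPKM in SECs and 27.1, 65.8 and 53.2 in AECs (log2 fold change -3.91, adjusted p = 0.00711). Both held in every setting, while *Ctsb*, cathepsin B (log2 fold change -2.01, adjusted p = 0.0449), lost its call in 10 of 18, among them without any 1 of the 6 libraries (adjusted p up to 0.158). The EHD proteins, which shape recycling endosomes, differed by member: *Ehd3* was lower in AECs at 10.2, 14.4 and 12 RPKM in AECs against 63, 138 and 77.1 in SECs (log2 fold change -2.76, adjusted p = 0.00905), and *Ehd4* higher at 24.1, 46 and 29.3 RPKM in AECs against 8.78, 6.27 and 9.24 in SECs (log2 fold change 1.87, adjusted p = 0.0218). *Scara3*, a scavenger receptor, was also called on the AEC side, with a log2 fold change of 3.07. The call of *Stab1* was lost without AEC replicate 4 or SEC replicate 4 (adjusted p 0.0675 to 0.0695), that of *Fcgr2b* without AEC replicate 3 or 4 or SEC replicate 4 (adjusted p 0.0907 to 0.115), that of *Ehd3* without AEC replicate 4 or SEC replicate 4 (adjusted p 0.053 to 0.0591) and that of *Scara3* without SEC replicate 4 (adjusted p = 0.0518). Those of *Fcgrt* and *Ehd4* were lost without any 1 library other than AEC replicate 1 (adjusted p up to 0.128 and 0.0916). The call of *Scara3* was also lost when all 3 groups were fitted together (adjusted p = 0.0641).

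Of 10 tested genes of caveolae and transcytosis 2 were higher in AECs, *Cav1* and *Emp2*, 0 lower, and 8 did not pass. *Emp2*, a tetraspan protein that regulates caveolins, had 22.1, 87.1 and 102 RPKM in AECs and 0.313, 0.139 and 0.166 in SECs (log2 fold change 5.63, adjusted p = 0.00583). Of 29 lipid genes 4 were higher and 6 lower. *Lipg*, endothelial lipase, which acts on high-density lipoprotein, had 68.4, 129 and 73.5 RPKM in SECs and 1.68, 0.158 and 0.393 in AECs (log2 fold change -5.75, adjusted p = 0.00279). *Angptl4*, an inhibitor of lipoprotein lipase, had 162, 479 and 532 RPKM in SECs and 5.75, 37.2 and 21.5 in AECs (log2 fold change -4.27, adjusted p = 0.0288). *Apoe*, the apolipoprotein of remnant clearance, had 886, 1184 and 1283 RPKM in SECs and 71.6, 157 and 97.8 in AECs (log2 fold change -3.41, adjusted p = 0.0067). The transcription factors *Meox2* and *Tcf15*, which drive fatty acid transport in heart endothelium, were on the AEC side. *Meox2* had 3.93, 11.2 and 16.5 RPKM in AECs and no read in SECs, at least 416-fold higher than 3 reads per SEC library would give. *Tcf15* had 8.36, 42.1 and 8.03 RPKM in AECs and 0.0329, 0.0506 and 0.438 in SECs (log2 fold change 3.73, adjusted p = 0.0267). Fatty acid transport proteins split by member, with *Slc27a3* on the AEC side (log2 fold change 3.45, adjusted p = 0.0114) and *Slc27a1* on the SEC side (log2 fold change -2.80, adjusted p = 0.0113). *Emp2* and *Lipg* held in every setting. The call of *Apoe* was lost without AEC replicate 4 (adjusted p = 0.0515), that of *Angptl4* without AEC replicate 4 or SEC replicate 3 or 4 (adjusted p 0.111 to 0.131), those of *Slc27a3* and *Slc27a1* without AEC replicate 4 or SEC replicate 4 (up to 0.0701 and 0.063), that of *Tcf15* without AEC replicate 4 or any 1 SEC library (adjusted p 0.075 to 0.109) and that of *Meox2* without any 1 library other than AEC replicate 1 (adjusted p 0.0542 to 0.084). *Tcf15* was also lost with voom and when all 3 groups were fitted together (adjusted p up to 0.125).

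Of 29 tested genes of elastic fibres and interstitial matrix 9 were higher and 4 lower in AECs. Beside *Fbln2* they included *Fbln5*, fibulin 5, needed to assemble elastic fibres, with 172, 677 and 560.1 RPKM in AECs and 23.4, 29.1 and 16.8 in SECs (log2 fold change 4.10, adjusted p = 0.013), and *Ltbp4*, which holds latent TGF-beta on fibrillin, with 66.1, 313 and 116 RPKM in AECs and 2.46, 3.38 and 5.92 in SECs (log2 fold change 4.84, adjusted p = 0.0093). *Eln*, the gene of elastin itself, had 31, 64.5 and 38.9 RPKM in AECs and 5.33, 9.48 and 4.53 in SECs (log2 fold change 2.61, adjusted p = 0.0153). *Fbn1*, fibrillin 1, was lower in level at 1.75, 4.9 and 5.38 RPKM in AECs and 0.154, 0.030 and 0.0553 in SECs (log2 fold change 2.12, adjusted p = 0.0242), as was *Mfap2*, a protein of its microfibrils, at 5.13, 12.1 and 10.6 RPKM in AECs and 1.65, 1.27 and 1.37 in SECs (log2 fold change 2.01, adjusted p = 0.0278). On the SEC side, *Prelp*, a leucine-rich proteoglycan of basement membranes, had 101, 164 and 108 RPKM in SECs against 2.23, 1.47 and 7.03 in AECs (log2 fold change -4.94, adjusted p = 0.00506). *Bgn*, biglycan, had 101, 180.4 and 112 RPKM in SECs against 5.0, 16.5 and 17.9 in AECs (log2 fold change -3.35, adjusted p = 0.0176). *Ctgf*, a matricellular growth factor and YAP target, had 163, 83.9 and 165 RPKM in SECs and 2.35, 10.5 and 8.85 in AECs (log2 fold change -4.19, adjusted p = 0.0113). *Loxl2*, a lysyl oxidase that cross-links matrix fibres, had 3.15, 4.93 and 3.83 RPKM in SECs and 0.0818, 0.243 and 0.318 in AECs (log2 fold change -2.02, adjusted p = 0.00707). *Prelp* and *Loxl2* held in every setting. The calls of *Fbln5* and *Ctgf* were lost without AEC replicate 4 or SEC replicate 4 (adjusted p up to 0.0729 and 0.0683), that of *Ltbp4* without AEC replicate 4 (adjusted p = 0.0584), that of *Eln* without AEC replicate 4 or SEC replicate 1 or 4 (adjusted p 0.0551 to 0.0807), that of *Bgn* without AEC replicate 3 or 4 or SEC replicate 3 or 4 (adjusted p 0.0506 to 0.0818), and those of *Fbn1* and *Mfap2* without any 1 library other than AEC replicate 1 (up to 0.125 and 0.129). In the basement membrane list 3 of 17 were higher and 0 lower: *Sparcl1*, *Lama3* and *Col18a1*. *Lama3* (log2 fold change 1.97, adjusted p = 0.0396) lost its call in 8 of 18 settings. Among these were the fits without any 1 library other than AEC replicate 1 (adjusted p 0.0721 to 0.164). *Col18a1*, the collagen that yields endostatin, had 33.4, 153 and 92.9 RPKM in AECs and 1.32, 1.08 and 0.823 in SECs (log2 fold change 5.26, standard error 0.54, adjusted p = 0.00583) and held in every setting.

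Factors that act on HSCs were higher in AECs in 8 of 30 tested members and lower in 3. *Kitl*, which encodes stem cell factor, the ligand of Kit, lies on chromosome 10 from 100015630 to 100100413. It had 30.7, 117 and 65 RPKM in *Nestin*-GFPbright AECs, 20.7, 32.5 and 94.7 in *Nestin*-GFPdim AECs and 0.886, 0.849 and 0.441 in SECs. Every SEC library was under 1 RPKM and every *Nestin*-GFPbright AEC library over 30 (log2 fold change 5.20, standard error 0.48, adjusted p = 0.00454), and the adjusted p ran from 0.000252 to 0.0407 over 18 other settings. *Cxcl12*, on chromosome 6 from 117168535 to 117181367, had 66.3, 257 and 296 RPKM in *Nestin*-GFPbright AECs, 50.1, 69.2 and 219 in *Nestin*-GFPdim AECs and 6.47, 16.3 and 10.1 in SECs. The groups did not overlap (log2 fold change 3.94, standard error 0.63, adjusted p = 0.0217), but the call was lost without any 1 library other than AEC replicate 1 (adjusted p 0.0612 to 0.105). Marrow stroma also expresses both genes. Its list took 0.0792% to 0.382% of the reads of the AEC libraries and 0.0351% to 0.0613% of those of SECs. The called members of 16 were *Alpl*, *Kitl* and *Cxcl12*, whose own reads are in this share. In *Nestin*-GFPbright AEC replicate 3 they had 12655, 22771 and 70849 of the 33534829 reads in listed genes. The share thus does not measure stromal RNA apart from these genes, and the part of stromal RNA was not tested.

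Growth factors of the same list were on both sides. *Vegfc*, the ligand of VEGFR3, had 28.8, 112 and 103 RPKM in AECs and 1.21, 1.94 and 1.34 in SECs (log2 fold change 4.83, adjusted p = 0.00707), while *Flt4*, the gene of its receptor, had the reverse, 3.65, 20.7 and 8.58 RPKM in AECs and 143, 244 and 173 in SECs (log2 fold change -4.21, adjusted p = 0.013). *Tgfb2*, a TGF-beta ligand, had 6.23, 17.6 and 11.3 RPKM in AECs and at most 0.0347 in SECs (log2 fold change 3.54, adjusted p = 0.00634). *Bmp6* was higher in AECs, at 1.94, 10.4 and 4.84 RPKM in AECs against 0.098, 0.0324 and 0.128 in SECs (log2 fold change 2.42, adjusted p = 0.0441), and *Bmp4* in SECs, at 9.9, 19 and 15 RPKM in SECs against 0.0618, 2.58 and 2.27 in AECs (log2 fold change -2.71, adjusted p = 0.0418). The insulin-like growth factors split in the same manner, with *Igf2* at 1.62, 7.23 and 6.17 RPKM in AECs and 0.00564, 0.00618 and 0.0258 in SECs (log2 fold change 2.41, adjusted p = 0.0344) and *Igf1* at 0.172, 0.762 and 0.631 RPKM in AECs and 3.44, 10.4 and 4.08 in SECs (log2 fold change -2.08, adjusted p = 0.0444). So did their binding proteins, *Igfbp3* (log2 fold change 4.31, adjusted p = 0.0261) and *Igfbp2* (log2 fold change -4.57, adjusted p = 0.0213). *Vegfc* and *Tgfb2* held in every setting. The calls of *Igf1* and *Bmp6* were lost in 12 of 18 and 11 of 18 settings, among them without any 1 library other than AEC replicate 1 (adjusted p up to 0.152 and 0.173). *Igf1* was also lost without AEC replicate 1. Those of *Bmp4*, *Igf2* and *Igfbp3* were lost without any 1 library other than AEC replicate 1 (up to 0.173, 0.151 and 0.12), that of *Igfbp2* without AEC replicate 3 or 4 or SEC replicate 3 (adjusted p 0.0617 to 0.101) and that of *Flt4* without AEC replicate 4 or SEC replicate 3 or 4 (adjusted p 0.0581 to 0.0735). The call of *Igfbp2* was also lost with voom (adjusted p = 0.117).

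Cytokines of the list varied widely between replicates. *Il6*, an inflammatory cytokine that also acts on progenitors, had 1.37, 237 and 192 RPKM in AECs and 0.358, 15.7 and 11.5 in SECs (log2 fold change 2.86, standard error 1.94, adjusted p = 0.601). Replicate 1 was by far the lowest library of both groups. *Il6* passed in 2 of 18 other settings. These were the libraries numbered 3 and 4 alone (adjusted p = 0.00481) and the replicate block (adjusted p = 0.0441). *Csf3*, which encodes the granulocyte factor G-CSF, did not pass either, at 0.0356, 1.83 and 2.0 RPKM in AECs and 0.095, 92.9 and 22.6 in SECs (log2 fold change -2.70, adjusted p = 0.506), and passed with the same libraries alone (adjusted p = 0.0326). An immediate early and heat shock list, of which 0 of 21 members were called, took 0.746% and 0.410% of the reads of replicate 1 of AECs and SECs and 1.85% to 3.50% of the others, and its part in these values was not tested.

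Ligands, receptors and antagonists of TGF-beta and BMP were called in 8 of 33 tested genes, 6 of them higher in AECs. *Tmem100*, a membrane protein induced by BMP9 and ALK1 in arteries, held in every setting, at 31.1, 32 and 56.5 RPKM in AECs and 0.0471, 0.00384 and 0.129 in SECs (log2 fold change 5.22, standard error 0.30, adjusted p = 0.00168). *Fstl1*, a follistatin-like protein, had 22.7, 99.9 and 105 RPKM in AECs and 2.41, 4.89 and 2.51 in SECs (log2 fold change 3.94, adjusted p = 0.0209), and lost its call without any 1 library other than AEC replicate 1 (adjusted p 0.0646 to 0.105). *Tgfbr3*, the co-receptor betaglycan, was higher in SECs at 44.9, 67 and 42.1 RPKM in SECs against 4.69, 8.29 and 7.73 in AECs (log2 fold change -2.73, adjusted p = 0.0067). In the Wnt list 1 of 27 was higher, *Dkk2*, and 1 lower, *Wnt2*, beside 1.9% and 2.79% of all genes tested. *Dkk2*, an antagonist of Wnt co-receptors, had 1.79, 13.1 and 8.48 RPKM in AECs and no read in SECs. This was at least 480.0-fold higher than 3 reads per SEC library would give. Its adjusted p was 0.049, and the call was lost in 10 of 18 settings, among them without any 1 library other than AEC replicate 1 (adjusted p 0.106 to 0.191). Of 35 guidance genes 4 were higher and 1, *Sema3a*, lower. *Sema7a*, an integrin-binding semaphorin, had 5.4, 26 and 8.32 RPKM in AECs and 0.134, 0.0757 and 0.0997 in SECs (log2 fold change 3.41, adjusted p = 0.0206), with the call lost without AEC replicate 4 or any 1 SEC library (adjusted p 0.066 to 0.101). *Ntn4*, a netrin of basement membranes, was also higher (log2 fold change 1.56, adjusted p = 0.0481), a call lost in 12 of 18 settings, among them without any 1 library other than AEC replicate 1 (adjusted p 0.112 to 0.197).

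Genes of vascular tone were higher in AECs in 8 of 28 tested members and lower in 2. *Edn1*, the constrictor peptide endothelin 1, had 8.56, 52.4 and 59.7 RPKM in AECs and 0.373, 0.454 and 0.175 in SECs (log2 fold change 4.56, adjusted p = 0.0206). *Ednrb*, its receptor on endothelium, had 25.4, 130.3 and 121 RPKM in AECs and 0.355, 0.95 and 0.306 in SECs (log2 fold change 5.63, adjusted p = 0.0077). *Ace*, which makes angiotensin II, had 16.2, 56 and 29.9 RPKM in AECs and 0.32, 0.144 and 0.614 in SECs (log2 fold change 4.54, standard error 0.46, adjusted p = 0.00564). *Gper1*, a G protein-coupled receptor that binds estrogen, had 20.3, 33.1 and 55.5 RPKM in AECs and 0.0831, 0.00267 and 0.00267 in SECs (log2 fold change 5.07, adjusted p = 0.00287). *P2ry2*, the receptor by which ATP relaxes arteries, had 25.7, 52.5 and 67 RPKM in AECs and 2.71, 1.12 and 1.01 in SECs (log2 fold change 4.20, adjusted p = 0.00585). *Gucy1a3*, a subunit of the receptor for nitric oxide, was low, at 1.87, 3.26 and 3.64 RPKM in AECs and 0.149, 0.00146 and 0.00146 in SECs (log2 fold change 1.87, adjusted p = 0.00981). *Nos3*, the endothelial nitric oxide synthase, did not pass in spite of separate groups, with 15.6, 65.9 and 59.99 RPKM in AECs and 5.72, 10.5 and 7.02 in SECs (log2 fold change 2.25, adjusted p = 0.0931). It passed in 4 of 18 settings. The 2 lower genes act in prostaglandin synthesis. *Ptges*, the synthase of prostaglandin E2, had 23.2, 47.4 and 22.3 RPKM in SECs and 1.62, 0.0847 and 0.496 in AECs (log2 fold change -4.22, adjusted p = 0.00635). *Ptgs1*, which encodes cyclooxygenase 1, had 66.6, 131 and 73.1 RPKM in SECs and 28.7, 13.5 and 11.6 in AECs (log2 fold change -2.31, adjusted p = 0.0326). *Ace*, *Gper1*, *P2ry2* and *Ptges* held in every setting. The calls of *Edn1* and *Ptgs1* were lost without any 1 library other than AEC replicate 1 (adjusted p up to 0.101 and 0.132), that of *Ednrb* without AEC replicate 4 or SEC replicate 4 (adjusted p 0.0515 to 0.052) and that of *Gucy1a3* without SEC replicate 3 or 4 (adjusted p 0.0573 to 0.0729). The call of *Edn1* was also lost with voom.

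Coagulation factors and their inhibitors were divided. Of 26 tested genes 4 were higher and 4 lower in AECs. *F8*, which encodes factor VIII, had 67.7, 146 and 73.9 RPKM in SECs and 1.36, 4.99 and 4.81 in AECs (log2 fold change -4.39, standard error 0.47, adjusted p = 0.0067), the reverse of *Vwf*, the gene of its carrier. *Tfpi*, the inhibitor of the tissue factor pathway, was among the most abundant SEC transcripts named here at 1059.5, 2291 and 1206 RPKM in SECs against 18.2, 46.4 and 58.1 in AECs (log2 fold change -5.25, adjusted p = 0.00541). On the AEC side were *Plat*, tissue plasminogen activator, with 18.4, 93.5 and 112 RPKM in AECs and 0.0833, 1.97 and 1.1 in SECs (log2 fold change 4.97, adjusted p = 0.0181), and *Serpinf1*, the anti-angiogenic serpin PEDF, with 32.2, 118 and 132 RPKM in AECs and 1.85, 0.875 and 1.77 in SECs (log2 fold change 5.04, adjusted p = 0.00711). *Serpina3f* and *Serpina3g* were higher in SECs (-5.29 and -4.70 on the log2 scale), but belong to a cluster of near-identical genes between which reads may be split. Their calls were lost without AEC replicate 4 or SEC replicate 4 (adjusted p 0.0666 to 0.069) and without AEC replicate 4 or any 1 SEC library (adjusted p 0.0546 to 0.102). The calls of *F8*, *Tfpi* and *Serpinf1* held in every setting, and that of *Plat* was lost without any 1 library other than AEC replicate 1 (adjusted p 0.0547 to 0.0875). The call of *Plat* was also lost with voom.

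Chemokines and their atypical receptors were called in 7 of 26 tested genes. *Cx3cl1*, a membrane-bound chemokine of arteries, was higher in AECs with 21.8, 79.9 and 89.4 RPKM in AECs against 2.23, 6.06 and 2.69 in SECs (log2 fold change 3.65, adjusted p = 0.0237). *Cxcl9*, an interferon-induced chemokine, was higher in SECs with 48.4, 53.4 and 45.3 RPKM in SECs against 3.64, 1.81 and 1.79 in AECs (log2 fold change -3.91, adjusted p = 0.00256). So was *Rarres2*, the gene of chemerin, with 91.5, 125 and 83.6 RPKM in SECs against 1.12, 1.9 and 7.0 in AECs (log2 fold change -4.77, adjusted p = 0.00645). The atypical receptors, which bind chemokines without classical signalling, took different sides. *Ackr3*, the scavenger of CXCL12, had 10.01, 51 and 66.2 RPKM in AECs and 0.771, 1.73 and 0.405 in SECs (log2 fold change 4.16, adjusted p = 0.0267), whereas *Ackr1* and *Ackr2* were higher in SECs, *Ackr2* at 21.4, 24.4 and 19.9 RPKM in SECs against 0.128, 2.52 and 2.54 in AECs (log2 fold change -3.24, adjusted p = 0.0178). *Cxcl9* and *Rarres2* held in every setting. The calls of *Cx3cl1* and *Ackr3* were lost without any 1 library other than AEC replicate 1 (adjusted p up to 0.116 and 0.128), and that of *Ackr2* without AEC replicate 4 or any 1 SEC library (adjusted p 0.0598 to 0.0879). *Ackr2* was also lost with 0.1 or 0.01 RPKM added and with voom (adjusted p up to 0.102), in all in 7 of 18 settings. *Ackr3* was also lost with voom. In the complement list 1 of 19 was higher, *C1qtnf9*, and 2 lower, *Cfd* and *C1qtnf1*, beside 1.9% and 2.79% of all genes tested. The call of *C1qtnf9* (log2 fold change 4.75, adjusted p = 0.0148) was lost without AEC replicate 3 or 4 or SEC replicate 3 or 4 (adjusted p 0.0627 to 0.0779). It was also lost with voom (adjusted p = 0.0785).

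Of 62 transcription factors tested 10 were higher and 7 lower in AECs. *Mecom*, a zinc finger factor of arterial endothelium and of HSCs, had 5.07, 26.4 and 25.7 RPKM in AECs and 0.0609, 0.101 and 0.090 in SECs (log2 fold change 3.92, adjusted p = 0.0199). *Msx1*, a homeobox factor, had 8.21, 69.2 and 26.6 RPKM in AECs and 0.216, 0.763 and 0.931 in SECs (log2 fold change 4.03, adjusted p = 0.0306). *Meox1*, another, had 4.29, 7.97 and 9.2 RPKM in AECs and 0.449, 0.17 and 0.175 in SECs (log2 fold change 2.64, adjusted p = 0.00892). *Tbx3*, a T-box repressor, and *Prdm16*, a zinc finger factor known from arteries and brown fat, were also higher (2.55 and 1.93). Higher in SECs besides *Maf* was *Gata3*, a zinc finger factor, which had 2.62, 5.88 and 4.37 RPKM in SECs and 0.494, 0.0837 and 0.211 in AECs (log2 fold change -2.03, adjusted p = 0.0173). *Meis2*, a homeobox factor, had 3.6, 11.6 and 5.97 RPKM in SECs and 0.00599, 0.00303 and 0.00824 in AECs (log2 fold change -2.88, adjusted p = 0.0127). The call of *Meox1* was lost without SEC replicate 4 (adjusted p = 0.0655), that of *Meis2* without AEC replicate 3 or 4 or SEC replicate 4 (adjusted p 0.0572 to 0.0735), that of *Gata3* without AEC replicate 3 or 4 or SEC replicate 3 or 4 (adjusted p 0.0502 to 0.091) and that of *Tbx3* without AEC replicate 4 or any 1 SEC library (adjusted p 0.0521 to 0.0713). Those of *Mecom*, *Msx1* and *Prdm16* were lost without any 1 library other than AEC replicate 1 (adjusted p up to 0.0963, 0.132 and 0.116). The call of *Msx1* was also lost with voom.

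Carriers and channels were called in 13 of 35 tested genes, 9 of them higher in SECs. *Slc39a8*, an importer of zinc and manganese, had 15.8, 24.9 and 26.6 RPKM in SECs and 1.1, 0.899 and 0.629 in AECs (log2 fold change -3.62, standard error 0.28, adjusted p = 0.00319). *Slc16a9*, a carrier of the monocarboxylate family, had 20.7, 29.6 and 27.5 RPKM in SECs and 0.548, 0.0171 and 0.0376 in AECs (log2 fold change -4.50, standard error 0.29, adjusted p = 0.00234). *Slc31a1*, the importer of copper, had 85.9, 167 and 83.4 RPKM in SECs and 13.2, 16.2 and 18.5 in AECs (log2 fold change -2.67, adjusted p = 0.00931), a call lost without AEC replicate 4 (adjusted p = 0.0529). On the AEC side *Slc6a6*, the taurine transporter, had 120.4, 370.5 and 219 RPKM in AECs and 10.9, 7.27 and 10.3 in SECs (log2 fold change 4.37, adjusted p = 0.00509). *Slc26a10* had 25.4, 94.5 and 59.2 RPKM in AECs and 0.233, 0.00306 and 0.112 in SECs (log2 fold change 5.58, adjusted p = 0.00379). *Trpv4*, a calcium channel that opens on stretch and heat, had 11.5, 45.9 and 53.7 RPKM in AECs and 0.214, 0.0753 and 0.105 in SECs (log2 fold change 4.81, adjusted p = 0.00892), a call lost without AEC replicate 4 or SEC replicate 4 (adjusted p 0.0515 to 0.0567). In the tight junction list *Jam2* was higher in AECs and *Cxadr*, a junctional receptor of adenovirus, higher in SECs, with 49.1, 79 and 51.4 RPKM in SECs against 0.639, 0.0434 and 0.177 in AECs (log2 fold change -5.56, adjusted p = 0.00161). The regulators of G protein signalling *Rgs4* and *Rgs5*, neighbours on chromosome 1, went in opposite directions. *Rgs4* had 255, 1005 and 518 RPKM in SECs and 5.47, 4.7 and 18 in AECs (log2 fold change -5.85, adjusted p = 0.00711). *Rgs5* had 0.0968, 0.447 and 0.178 RPKM in SECs and 11.9, 37.7 and 86.9 in AECs (log2 fold change 4.84, adjusted p = 0.0146). *Nestin*-GFPdim AECs had 0.423, 3.08 and 0.571 RPKM of *Rgs5*, under every *Nestin*-GFPbright AEC library. The level of *Rgs5* was thus not shared by the dim AEC group.

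*Rgs5* is also a pericyte gene, and several markers of smooth muscle and pericytes were higher in the AEC group. Of 16 tested members 4 were higher in AECs, *Rgs5*, *Myl9*, *Acta2* and *Pdgfrb*, and 2 lower, with 11 of 16 higher in all AEC libraries than in any SEC library, beside 10.3% of all genes. *Acta2*, smooth muscle actin, had 21, 45.6 and 143 RPKM in AECs and 5.37, 0.0279 and 1.79 in SECs (log2 fold change 4.33, adjusted p = 0.0478), a call lost in 10 of 18 settings, among them without any 1 library other than AEC replicate 1 (adjusted p 0.0542 to 0.175). *Myl9*, a light chain of smooth muscle myosin, had 25.4, 25.5 and 89 RPKM in AECs and 0.423, 1.15 and 0.594 in SECs (log2 fold change 4.55, adjusted p = 0.00794). *Pdgfrb*, the receptor that recruits pericytes, had 2.06, 3.69 and 6.24 RPKM in AECs and 0.518, 0.189 and 0.093 in SECs (log2 fold change 1.91, adjusted p = 0.034). *Myh11*, the myosin that defines smooth muscle, had 1.42, 3.44 and 7.9 RPKM in AECs and 0.00102, 0.00102 and 0.00709 in SECs (log2 fold change 2.19, adjusted p = 0.0517). *Myh11* passed in 8 of 18 other settings. The summed list took 0.0357% to 0.192% of reads in AECs and 0.184% to 0.295% in SECs. Its members *Abcc9* and *Kcnj8*, subunits of the same potassium channel, were abundant in SECs. They had 91964 and 101075 of the 73475550 reads in listed genes of SEC replicate 3. The sum therefore does not measure mural cells in the SEC libraries. *Kcnj8* had 308, 659.8 and 422 RPKM in SECs and 4.76, 11.5 and 20.3 in AECs (log2 fold change -5.26, adjusted p = 0.00556). *Abcc9* had 109.96, 174 and 119 RPKM in SECs and 0.607, 2.26 and 4.12 in AECs (log2 fold change -5.47, adjusted p = 0.00356). Both calls held in every setting. Several genes named above are also expressed by mural cells (*Fbln5*, *Eln*, *Mgp*, *Cxcl12*), and the part of mural RNA in their levels was not tested. The call of *Rgs5* was lost without AEC replicate 3 or SEC replicate 3 or 4 (adjusted p 0.0578 to 0.0763), that of *Myl9* without SEC replicate 4 (adjusted p = 0.053) and that of *Pdgfrb* without any 1 library other than AEC replicate 1 (adjusted p 0.0811 to 0.168).

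Blood cell markers varied between libraries within each group. No member of the neutrophil (17 tested), erythroid (12) or T and NK cell (14) lists was called. The neutrophil list had 0 genes without overlap in spite of a median log2 fold change of 2.78. Among all genes tested, all AEC libraries lay above all SEC libraries in 10.3% and below them in 12.5%. Of 15 B and plasma cell genes *Ebf1*, a B lineage factor, was higher in AECs (log2 fold change 2.86, adjusted p = 0.0278), a call lost without AEC replicate 3 or 4 or SEC replicate 3 or 4 (adjusted p 0.0535 to 0.126). The call of *Ebf1* was also lost with 0.01 RPKM added. *Xbp1*, a factor of secretory cells, was lower (log2 fold change -2.48, adjusted p = 0.0136), a call lost without AEC replicate 4 or SEC replicate 3 or 4 (adjusted p 0.0545 to 0.0729). Of 17 macrophage genes 0 were higher and 2 lower, *Vcam1* among them, and of 10 lymphatic genes *Mmrn1* and *Flt4* were lower. *Mmrn1* had 9.08, 0.00116 and 0.868 RPKM in AECs and 68.7, 145 and 75.4 in SECs (adjusted p = 0.0246). Its call was lost in 8 of 18 settings, among them without any 1 library other than AEC replicate 1 (adjusted p 0.0648 to 0.116). Of all genes tested 1.9% were higher and 2.79% lower. With only the libraries numbered 3 and 4, which leave out the AEC and SEC libraries richest in neutrophil reads, 479 genes were higher and 379 lower, and 568 of the 736 calls remained.

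Of 32 genes of the interferon response and antigen presentation 4 were higher in AECs and 1, *Ubd*, lower. *Ifit1*, an antiviral protein induced by interferon, had 24.1, 35.8 and 29.1 RPKM in AECs and 5.84, 4.05 and 1.77 in SECs (log2 fold change 2.73, adjusted p = 0.0142). *Rsad2*, the antiviral enzyme viperin, had 43.6, 67.8 and 54.3 RPKM in AECs and 17.5, 7.82 and 4.37 in SECs (log2 fold change 2.53, adjusted p = 0.034). *Irf7*, the factor that amplifies the response, had 44.6, 52.1 and 52.3 RPKM in AECs and 25.9, 16.7 and 18.5 in SECs (log2 fold change 1.27, adjusted p = 0.0326). *Isg15* was the fourth (log2 fold change 1.46, adjusted p = 0.0319). The call of *Ifit1* was lost without AEC replicate 3 or 4 or SEC replicate 3 (adjusted p 0.0571 to 0.0768) and that of *Rsad2* without AEC replicate 3 or 4 or SEC replicate 3 or 4 (adjusted p 0.102 to 0.138), and those of *Irf7* and *Isg15* without any 1 library other than AEC replicate 1 (up to 0.159 and 0.151). *Irf7* and *Isg15* also lost their calls with the libraries scaled otherwise. Of 25 NF-kappaB targets and regulators 1 was higher, *Tnfrsf1b*, a receptor of TNF, and 2 lower, *Sele* and *Vcam1*. The call of *Tnfrsf1b* was lost in 7 of 18 settings, among them without any 1 library other than AEC replicate 1 (adjusted p 0.085 to 0.128). Of 24 proliferation genes 0 were called, and of 27 genes of glycolysis and hypoxia 0 were higher and 1 was lower. Over all genes tested the shares were 1.9% higher and 2.79% lower.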

How the data were processed

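RNA of sorted cells was amplified with SMART-Seq v4, made into Nextera XT libraries and sequenced as single-end reads. The authors deposited 1 table of log2 RPKM per gene and library. The submitters' processing notes name STAR, HTSeq, edgeR 3.12.0 and the build mm9, but 17066 of the 17087 positions checked (99.88%) overlap the same gene ID in GENCODE annotation of GRCm38, and positions are given as on that build. Whether reads were counted by strand is not given in the sources used here. Of all values, 99.998% came out as whole reads within 0.0001 once the added count was removed. Symbols turned into dates (21) or left empty (4) were replaced by ID.

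Values were converted to log2(RPKM + 1), where the added 1 RPKM understates changes of low genes, filtered and compared with limma 3.58.1 in R 4.3.3 (moderated test with a variance trend, two-sided, Benjamini-Hochberg over 15706 genes). Calls were made at an adjusted p under 0.05, and fold changes are *Nestin*-GFPbright AECs over SECs. An exact permutation test of 3 against 3 libraries cannot go below p = 0.1 and was not used. Tables and figures were made with Python 3.11.15, pandas 2.3.3, numpy 2.4.6 and matplotlib 3.10.9. Depth was taken from the recovered reads. On simulated data for the same comparison (15896 genes tested), 1 of 65 changes of 2-fold, 17 of 66 of 4-fold and 40 of 65 of 8-fold were recovered, 0 in the wrong direction, with 6 unchanged genes called. Small changes were thus often missed there. Each gene was drawn on its own, without the library differences in content that the real data show, so these rates need not hold for the real data.

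The comparison and the gene lists were chosen with earlier results of these data known. By rule the text names up to 12 called genes in each direction, those of widest fold change with at least 10 RPKM and no overlap, the first called members of each list by fold change, the sort genes and the markers, and genes that the study discusses for these cells. Named beyond that rule, after their values had been seen, were *Ackr2*, *Acta2*, *Apoe*, *Bgn*, *Bmp4*, *Bmp6*, *Cd36*, *Cdh13*, *Csf3*, *Ctsb*, *Cx3cl1*, *Dll4*, *Ehd3*, *Ehd4*, *Eln*, *Ephb4*, *F8*, *Fbn1*, *Fcgr2b*, *Fcgrt*, *Gata3*, *Gucy1a3*, *Igf1*, *Igf2*, *Itgb4*, *Kdr*, *Loxl2*, *Madcam1*, *Maf*, *Meis2*, *Meox1*, *Meox2*, *Mfap2*, *Mgp*, *Myh11*, *Myl9*, *Nos3*, *Notch1*, *Notch4*, *Nr2f2*, *Oit3*, *P2ry2*, *Pdgfrb*, *Podxl*, *Prdm16*, *Ptgs1*, *Robo4*, *Scara3*, *Slc16a9*, *Slc27a1*, *Slc31a1*, *Slc39a8*, *Slc6a6*, *Sox17*, *Stab1*, *Tbx3*, *Tek* and *Unc5b*. The 18 other settings changed the added value, the filter, the scaling, the variance model, library weights, the groups fitted, a replicate block, the libraries left out and the test (voom on recovered reads). Where only left-out libraries are named for a lost call, other settings may have lost it too. Some genes that the rule names are not reported here.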

Additional observations from a re-analysis of the deposited data

How the results depend on the processing

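Of the 736 calls, 574 to 724 remained under the settings that kept all libraries and 736 with a weight per library. The counts changed by over 1.5 times in these settings: 988 genes higher and 892 lower with weights, 563 higher with the replicate block (608 lower), and 479 higher with only the libraries numbered 3 and 4. Leaving out 1 library gave 51 to 681 genes higher and 109 to 495 lower: 681 and 495 without *Nestin*-GFPbright AEC replicate 1, 111 and 212 without its replicate 3, 63 and 109 without its replicate 4, and 121 and 296, 84 and 201, and 51 and 127 without SEC replicates 1, 3 and 4. The share of calls that were higher in AECs was 40.5%, against 52.6% with weights, 57.9% without *Nestin*-GFPbright AEC replicate 1, 55.8% with only the libraries numbered 3 and 4, and 29.0%, 29.5% and 28.7% without SEC replicates 1, 3 and 4. The cause was not tested. Deviations from the group means of libraries with the same number correlated at 0.714, 0.595 and -0.222 for numbers 1, 3 and 4. *Nestin*-GFPbright AEC replicate 4 went best with SEC replicate 3 (0.363). Deviations cancel out within each group, so these values are not independent of each other. Whether equal numbers pair the samples is not said by the labels and was not tested, and the main fit used no pairs. Of 21 named genes that were tested and not called, 8 passed with the block, among them *Icam1*, *Il6* and *Kdr* (adjusted p = 0.0296, 0.0441 and 0.042). Among 97 called genes named by rule, 51 kept their call in all 18 settings, and over 1745 pairs of gene and setting 1536 calls held, 209 fell short and 0 reversed. Among 65 called genes named beyond it, 18 kept theirs, with 961 of 1170 calls held, 209 short and 0 reversed. Depth limits the genes without a read in a group, which have only a lower bound.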

Other observations

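Further genes that differed between the vessel types, chosen after their values had been seen, are given by name and stand for no group. In SECs, *Sepp1*, the selenium carrier of plasma, was among the highest at 3348, 7548 and 3789.8 RPKM in SECs and 146, 399.6 and 433 in AECs (log2 fold change -3.96, adjusted p = 0.0179). *Tcn2*, the plasma carrier of vitamin B12, had 848, 1698 and 975 RPKM in SECs and 160.3, 209 and 212 in AECs (log2 fold change -2.54, adjusted p = 0.0154). *Trf*, transferrin, and *Steap3*, the ferrireductase of iron uptake, had log2 fold changes of -2.17 and -2.31. The ribonucleases *Rnase4* and *Ang* share a locus and went together. *Rnase4* had 323, 682 and 372 RPKM in SECs and 6.83, 12.9 and 20.2 in AECs (log2 fold change -5.04, adjusted p = 0.00432). *Ang* had 29.5, 62.6 and 32.8 RPKM in SECs and 1.24, 1.8 and 1.97 in AECs (log2 fold change -3.93, adjusted p = 0.00379). *Fgf23*, the phosphate hormone known from osteocytes, had 12.8, 80.7 and 92.3 RPKM in SECs and 0.292, 0.429 and 0.00374 in AECs (log2 fold change -5.27, adjusted p = 0.0148). *Il13ra2*, a decoy receptor of interleukin 13, had 42.7, 133 and 55.2 RPKM in SECs and 0.242, 0.016 and 0.287 in AECs (log2 fold change -5.88, adjusted p = 0.00287). *Jak1* and *Jak3*, which encode kinases, and *Il6st*, the receptor chain gp130, had log2 fold changes of -2.41, -2.17 and -3.0. Other kinases and receptor chains of cytokine signalling are not described here, so these genes say nothing of that pathway. *Ly96*, the partner of the endotoxin receptor, was higher in SECs too (log2 fold change -3.45, adjusted p = 0.00645). *Ap1b1*, an adaptor subunit of clathrin coats, had 127, 173 and 161 RPKM in SECs and 24.7, 14.2 and 10.5 in AECs (log2 fold change -3.22, adjusted p = 0.00601). *Snx8*, a sorting nexin, had 50.2, 75.4 and 54.9 RPKM in SECs and 8.39, 5.33 and 6.44 in AECs (log2 fold change -2.98, adjusted p = 0.00379). *Cltc*, clathrin heavy chain, had 103, 159 and 105 RPKM in SECs and 43.2, 48.6 and 52.7 in AECs (log2 fold change -1.30, adjusted p = 0.0371). *Rnase4*, *Ang*, *Il13ra2*, *Ly96*, *Ap1b1* and *Snx8* held in every setting, and *Cltc* was lost in 9 of 18 of them, among them leaving out any 1 library (adjusted p up to 0.128). The call of *Sepp1* was lost without AEC replicate 3 or 4 or SEC replicate 3 or 4 (adjusted p 0.0578 to 0.0807), that of *Tcn2* without AEC replicate 3 or 4 or SEC replicate 4 (adjusted p 0.0649 to 0.0772), that of *Trf* without AEC replicate 3 or 4 or SEC replicate 4 (adjusted p 0.0518 to 0.0698), that of *Steap3* without any 1 SEC library (adjusted p 0.0519 to 0.0729), that of *Fgf23* without AEC replicate 3 or 4 or SEC replicate 3 or 4 (adjusted p 0.0597 to 0.0833), that of *Jak1* without SEC replicate 4 (adjusted p = 0.0528), that of *Jak3* without AEC replicate 4 or SEC replicate 4 (adjusted p 0.0695 to 0.0723) and that of *Il6st* without any 1 library other than AEC replicate 1 (adjusted p 0.0762 to 0.111).

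In *Nestin*-GFPbright AECs, likewise chosen after the values had been seen, *Ly6c1*, a neighbour of *Ly6a* in the same gene family, had 674, 2646 and 2143 RPKM in AECs against 29.1, 67.1 and 22.8 in SECs (log2 fold change 5.42, adjusted p = 0.00852), and reads may be shared within the family. *Col8a1*, a short-chain collagen of vessel walls, had 25.4, 82.4 and 88 RPKM in AECs and 0.131, 0.644 and 0.0131 in SECs (log2 fold change 5.56, adjusted p = 0.00454). *Clu*, a chaperone of blood plasma, had 112, 275 and 449 RPKM in AECs and 6.91, 19.1 and 8.41 in SECs (log2 fold change 4.40, adjusted p = 0.0131). *Bcam*, an adhesion molecule that binds laminin, had 80.03, 282 and 258 RPKM in AECs and 7.98, 21.3 and 8.84 in SECs (log2 fold change 3.85, adjusted p = 0.0193). *Fgfr3*, a receptor of fibroblast growth factors, had 6.11, 16.1 and 11.3 RPKM in AECs and 0.33, 0.808 and 0.907 in SECs (log2 fold change 2.78, adjusted p = 0.0142). The groups did not overlap in any of these 5 genes. *Col8a1* held in every setting. The call of *Ly6c1* was lost without AEC replicate 4 or SEC replicate 4 (adjusted p 0.0567 to 0.0574), that of *Clu* without AEC replicate 3 or 4 or SEC replicate 4 (adjusted p 0.0591 to 0.0729), that of *Bcam* without AEC replicate 3 or 4 or SEC replicate 1 or 4 (adjusted p 0.0645 to 0.0993) and that of *Fgfr3* without AEC replicate 4 or any 1 SEC library (adjusted p 0.0521 to 0.0767).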
